A study of Mus musculus with 14 samples.

Results

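Histone lysine demethylases remove methyl groups from lysines of histone tails. KDM1A (LSD1) is an amine oxidase that works in a complex with RCOR1 and HDAC proteins, and in red cell precursors it is recruited by the repressor GFI1B. The other members are JmjC-domain oxygenases: KDM6A and KDM6B act on H3K27, KDM7A on H3K9 and H3K27, KDM5A, KDM5B and KDM5C on H3K4, KDM3B on H3K9, KDM4A on H3K9 and H3K36, and KDM2B on H3K36, while the CXXC domain of KDM2B also brings a variant Polycomb complex to unmethylated CpG islands. The genes Kdm1a, Kdm2b, Kdm3b, Kdm4a, Kdm5a, Kdm5b, Kdm5c, Kdm6a, Kdm6b and Kdm7a were chosen by name, 10 of 21887 protein-coding genes of the mouse build GRCm38. Each gene was taken with 5 kb of sequence on both sides, and peaks were assigned to it by their summits. Elongating polymerase was read as the percentage of the gene's length that lay under its peaks.

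The measurements were ChIP-seq peak lists from G1ER cells, mouse erythroblasts without a working Gata1 gene, in which an added GATA1 fusion protein can be switched on with estradiol. Wild-type cells (WT) were compared with Chd7-/- cells (KO), which lack a chromatin remodelling ATPase, and both carry the GATA1 defect and the fusion. The antibodies were raised against GATA2 (Santa Cruz, sc9008), RUNX1 (Abcam, ab23980) and RNA polymerase II phosphorylated at serine 2 of its tail (abcam ab5095, here S2P), the form found on elongating polymerase. The series title names the interaction of CHD7 with Runx1 in hematopoietic differentiation. Cells were grown with EPO and SCF, and estradiol appears in the labels as part of an assay of differentiation. Whether the ChIP cells received it, and whether the KO line is 1 clone, is not given there.

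Of 14 samples, 6 were inputs. The GATA2 lists held 68199 WT and 80611 KO peaks, the RUNX1 lists 28952 and 35281, and the S2P lists 163620 and 165206. Each factor list came from 1 library, and each S2P list is named in the labels for both replicates of its genotype. There was therefore no replicate spread, and every difference below compares lists and was not tested between genotypes. The strength of a factor peak is the number of fragments that overlap its summit, with a median over each list of 23 (GATA2, WT), 24 (GATA2, KO), 38 (RUNX1, WT) and 37 (RUNX1, KO). The bracketed ranges of fragments and of their ratios are 95% intervals that cover counting error only. The erythroid genes Klf1, Epor and Alas2 lay under S2P peaks for 18.5% to 75.2% of their length in WT and 22.6% to 83.3% in KO, whereas the lymphoid gene Cd3e and the myeloid gene Mpo had 0% in both. Chd7 itself had no RUNX1 peak and no S2P in either genotype and 1 GATA2 peak in KO, so these lists give no check of the genotype labels. A ratio of KO to WT is given after division by the lowest local background of each list, which scales with depth.

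GATA2 had peaks at every one of the 10 genes in both lists, and RUNX1 at 9 of 10 in both, all except Kdm1a. Over all protein-coding genes 56.6% had a GATA2 peak in WT and 61.0% in KO, and 50.1% and 52.7% had a RUNX1 peak. The members are long genes, with a median length of 66.3 kb against 17.2 kb over all genes, and the longer a gene, the more summits its window can hold. They held a median of 6 GATA2 peaks in WT and 6.5 in KO, where the 8114 genes of 20 to 120 kb held 2 in each list. For RUNX1 the medians were 4 and 4, against 1 and 1 in genes of that length.

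Kdm5b and Kdm6a held the most GATA2 peaks, with 15 each in WT and 14 and 15 in KO. Kdm1a held 11 in both lists, Kdm2b 10 and 12, and Kdm3b and Kdm6b 6 each in WT, with 6 and 7 in KO. Kdm5a held 5 in both lists, Kdm4a 4 in both, Kdm5c 3 in both, and Kdm7a 3 and 4. The order by RUNX1 was another one, led by Kdm6b with 12 peaks in WT and 17 in KO, followed by Kdm5b with 9 and 12. Kdm6a and Kdm3b held 5 RUNX1 peaks in both lists, Kdm4a 5 and 4, Kdm2b 3 and 4, Kdm5c 2 and 1, Kdm7a 1 and 4, and Kdm5a 1 in both.

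**Figure D1:**
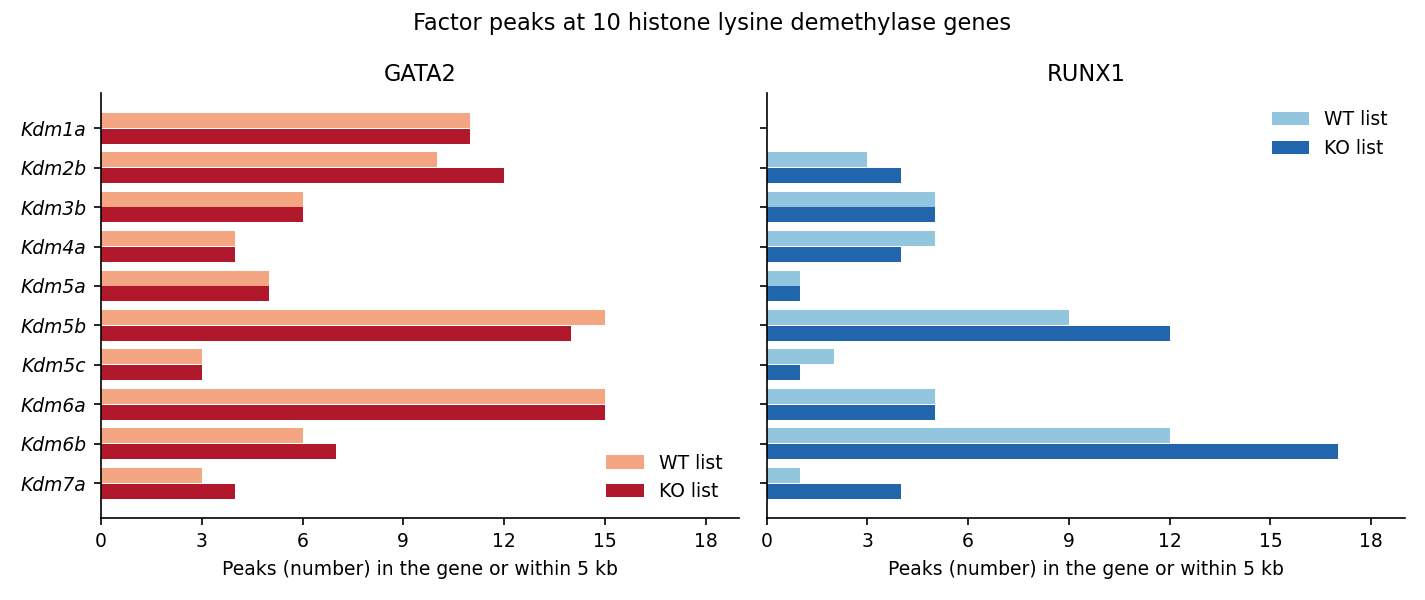
Number of GATA2 peaks (left) and RUNX1 peaks (right) in each demethylase gene or within 5 kb, with 1 bar for the WT list and 1 for the KO list. Kdm1a had 11 GATA2 peaks and no RUNX1 peak in either genotype, and Kdm6b had 12 WT and 17 KO RUNX1 peaks.

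Most genes kept a similar number of GATA2 peaks in KO: 3 of 10 had more (Kdm2b, Kdm6b, Kdm7a), 1 had fewer (Kdm5b) and 6 had the same number. Over all genes with GATA2 in either list, 48.3% had more peaks in KO and 17.0% fewer. For RUNX1, 4 of 9 had more in KO (Kdm2b, Kdm5b, Kdm6b, Kdm7a) and 2 fewer (Kdm4a, Kdm5c), against 44.0% and 12.7% of genes with RUNX1 in either list. The lower number at Kdm4a came from 2 adjoining WT peaks at its start that lay under 1 KO peak. The KO lists were longer for both factors. Kdm2b lies on chromosome 5, where shared summits of both factors had higher ratios of KO to WT than elsewhere, with the values given where that gene is described.

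Where RUNX1 sat at the starts of these genes, GATA2 mostly did not. Among the 7 members with an annotated start, a RUNX1 summit lay within 1 kb of a start in 5 in WT (Kdm2b, Kdm4a, Kdm5b, Kdm5c, Kdm6a) and in 6 in KO, with Kdm7a added, against 38.6% and 42.4% of 17492 genes. A GATA2 summit lay there in 1 of 7 in either list, at Kdm4a, against 15.1% and 17.5%. Kdm1a had neither factor at its start. The GATA2 sites were mostly farther inside or upstream of the genes, and 5 of 7 genes had one within 2 kb of a start.

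The sequences upstream of 6 starts with a WT RUNX1 summit in them are printed here to show what lies under those summits. The sequence of another such Kdm2b start, which lies 17 bases from a start shown and shares its hexamer and summit, is left out. Each is the strand of the gene on GRCm38.p6, from RefSeq, 5′ to 3′, and covers the 250 bases before the start. Capitals mark the RUNX core hexamers TGTGGT and TGCGGT on either strand, of which the reverse complements are ACCACA and ACCGCA.
Kdm2b, chr5:122900368-122900617, minus strand: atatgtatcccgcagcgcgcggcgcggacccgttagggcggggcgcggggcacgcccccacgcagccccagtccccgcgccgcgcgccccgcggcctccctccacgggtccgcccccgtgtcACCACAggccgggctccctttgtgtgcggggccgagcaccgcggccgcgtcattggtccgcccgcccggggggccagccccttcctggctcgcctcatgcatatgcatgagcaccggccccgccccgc
Kdm2b, chr5:122989100-122989349, minus strand: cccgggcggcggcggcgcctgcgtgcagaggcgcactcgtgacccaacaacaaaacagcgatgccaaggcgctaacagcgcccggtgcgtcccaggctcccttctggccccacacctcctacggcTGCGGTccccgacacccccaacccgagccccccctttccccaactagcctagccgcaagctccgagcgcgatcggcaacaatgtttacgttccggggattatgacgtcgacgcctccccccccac
Kdm4a, chr4:118180044-118180293, minus strand: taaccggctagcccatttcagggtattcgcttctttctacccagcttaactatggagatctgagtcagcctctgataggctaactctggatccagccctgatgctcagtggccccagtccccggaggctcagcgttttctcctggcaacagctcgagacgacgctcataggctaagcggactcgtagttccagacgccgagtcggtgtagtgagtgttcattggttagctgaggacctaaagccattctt
Kdm5b, chr1:134559928-134560177, plus strand: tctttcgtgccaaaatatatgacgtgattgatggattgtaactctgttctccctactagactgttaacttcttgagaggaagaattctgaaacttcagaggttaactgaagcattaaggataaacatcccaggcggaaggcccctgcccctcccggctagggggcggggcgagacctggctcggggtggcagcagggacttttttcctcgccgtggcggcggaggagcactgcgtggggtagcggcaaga
Kdm5c, chrX:152232977-152233226, plus strand: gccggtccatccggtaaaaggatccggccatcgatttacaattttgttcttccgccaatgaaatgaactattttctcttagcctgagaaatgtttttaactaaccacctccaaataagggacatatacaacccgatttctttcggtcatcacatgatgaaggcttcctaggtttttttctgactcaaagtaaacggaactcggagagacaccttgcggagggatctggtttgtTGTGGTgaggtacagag
Kdm6a, chrX:18162325-18162574, plus strand: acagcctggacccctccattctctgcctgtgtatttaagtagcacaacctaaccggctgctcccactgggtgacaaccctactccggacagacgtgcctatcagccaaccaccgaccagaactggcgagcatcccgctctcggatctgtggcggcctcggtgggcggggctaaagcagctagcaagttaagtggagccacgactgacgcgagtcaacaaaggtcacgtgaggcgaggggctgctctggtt
A hexamer lay in 3 of these 6 sequences. The Kdm2b sequence on chromosome 5 at 122900368 to 122900617 holds one that starts 128 bases before the gene start, 45 bases from the WT RUNX1 summit and 54 bases from the KO summit. The other Kdm2b sequence holds one that starts 125 bases before its start, 95 bases from the WT summit. The Kdm5c sequence holds one 17 bases before its start, 57 bases from the WT summit and 90 from the KO summit. Over all 32851 promoters of this length, 18.6% hold such a hexamer. A hexamer of GATA type (AGATAA or TGATAA or AGATAG or TGATAG on either strand) starts 178 bases before Kdm4a and 153 bases before Kdm6a, and 26.5% of all promoters hold one. No GATA2 summit lay in these 6 sequences.

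At the printed starts other than that of Kdm4a, the RUNX1 summits matched between the lists had more fragments in KO, in part within counting error. Over all genes, 70.8% of shared RUNX1 summits were higher in KO. At Kdm5b, RUNX1 gave 82 WT fragments (65.2 to 102) and 115 KO fragments (94.9 to 138), a ratio of 1.38 (1.03 to 1.85). This summit also lies in Mgat4e, whose gene overlaps the Kdm5b start. At Kdm6a, RUNX1 gave 36 (25.2 to 49.8) and 49 (36.3 to 64.8), and at Kdm5c the peak nearest the start gave 26 (17.0 to 38.1) and 41 (29.4 to 55.6), with ratios of 1.34 (0.853 to 2.12) and 1.55 (0.926 to 2.64). Both of these intervals include 1. A second Kdm5c peak, 360 bases upstream with 26 fragments, was called in WT alone.

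At Kdm4a the WT list had 2 RUNX1 peaks at the start, with 67 and 92 fragments, and the KO list 1 wider peak of 129 fragments (108 to 153). Because 2 peaks became 1, no ratio was taken. GATA2 had a weaker summit there, about 655 bases inside the gene, with 26 WT fragments (17.0 to 38.1) and 42 KO fragments (30.3 to 56.8), a ratio of 1.52 (0.912 to 2.59).

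Among the genes whose products act on H3K27, Kdm6a held the strongest WT GATA2 summit of the members and Kdm6b the strongest RUNX1 summit of both lists. In Kdm6a, the X-linked demethylase that is part of the enhancer H3K4 methyltransferase complex (X, 18160862 to 18279936, plus strand), the GATA2 peak 17143 bases inside the gene gave 257 fragments in WT and 233 in KO. By q it ranked 1 of 68199 WT peaks and 98 of 80611 KO peaks, which is a place within each list and no measure of change. The ratio was 0.855 (0.713 to 1.02). RUNX1 lay on the same site, with 74 WT fragments (58.1 to 92.9) and 44 KO fragments (32.0 to 59.1). The ratio of 0.585 (0.393 to 0.861) was the only one of the 31 shared RUNX1 summits of these genes whose interval lay below 1, and 2.49% of all shared RUNX1 summits had a lower one.

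A second pair of summits in Kdm6a lay 25895 bases from the start, with 97 GATA2 fragments in WT and 115 in KO and 24 and 26 RUNX1 fragments. The RUNX1 ratio was 1.07 (0.588 to 1.94) at this second site, with an interval that includes 1, as at the start. The other GATA2 summits along Kdm6a were weak, with 9 to 49 fragments in WT. One of them, with 49 and 47 GATA2 fragments, carried RUNX1 in WT alone, with up to 21 fragments.

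Kdm6b (chromosome 11, 69398508 to 69420367), the inducible H3K27 demethylase, was dense in RUNX1 peaks. Its window held 3.77 RUNX1 peaks per 10 kb in WT and 5.34 in KO, and 99.7% and 99.8% of protein-coding genes had fewer per length. The window also takes in all or part of Cyb5d1, Naa38, Tmem88 and Dnah2, so a flanking peak may belong to those genes as much as to Kdm6b. Positions in it are given from the lower-coordinate end. The strongest RUNX1 summit lay at 14876 bases, with 199 WT fragments (172 to 229) and 228 KO fragments (199 to 260), a ratio of 1.13 (0.928 to 1.37). GATA2 had 57 and 87 fragments on that site, a ratio of 1.44 (1.02 to 2.05).

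Of 18 sites in Kdm6b, 5 carried both factors in all 4 lists, 11 carried RUNX1 alone and 1 GATA2 alone. The strongest GATA2 summit, at 13472 bases, gave 112 fragments in WT and 127 in KO, with 41 and 49 RUNX1 fragments on it. A RUNX1 site at 11004 bases gave 35 and 63 fragments, a ratio of 1.77 (1.15 to 2.76). A GATA2 site 1410 bases outside the lower end, in Tmem88, gave 25 and 48, a ratio of 1.81 (1.09 to 3.06). These 2 weaker sites differed more between the lists than the strongest RUNX1 summit of the gene did.

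Kdm6b also held the 2 strongest peaks called in 1 genotype alone. A KO RUNX1 peak (69401354 to 69401566) gave 63 fragments (48.4 to 80.6) against a local background of 18.4, and a KO GATA2 peak (69409087 to 69409310) gave 38 (26.9 to 52.2) against 10.4. By the caller's fold enrichment, as the authors deposited it, they stood 3.30 and 3.41 times above their background. Of the 17 KO RUNX1 peaks in the gene window, 7 had no WT counterpart, and some of these lay in Tmem88.

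Kdm7a (chromosome 6, 39136620 to 39206773, minus strand) had 1 RUNX1 peak in WT and 4 in KO, with S2P over less than 1% of the gene in either genotype. A shared RUNX1 site about 1490 bases inside the gene gave 35 WT fragments (24.4 to 48.7) and 65 KO fragments (50.2 to 82.8), a ratio of 1.83 (1.19 to 2.84). A peak called in KO alone, 503 bases upstream of the start (39207160 to 39207356), gave 36 fragments (25.2 to 49.8), and another 311 bases inside gave 30. Another RUNX1 peak called in KO alone, with 19 fragments, lay on the strongest GATA2 site of the gene. That GATA2 site, 37436 bases inside, gave 95 WT fragments (76.9 to 116) and 140 KO fragments (118 to 165), a ratio of 1.39 (1.06 to 1.82). A second GATA2 site gave 55 and 72, a ratio of 1.23 (0.857 to 1.79).

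**Figure D2:**
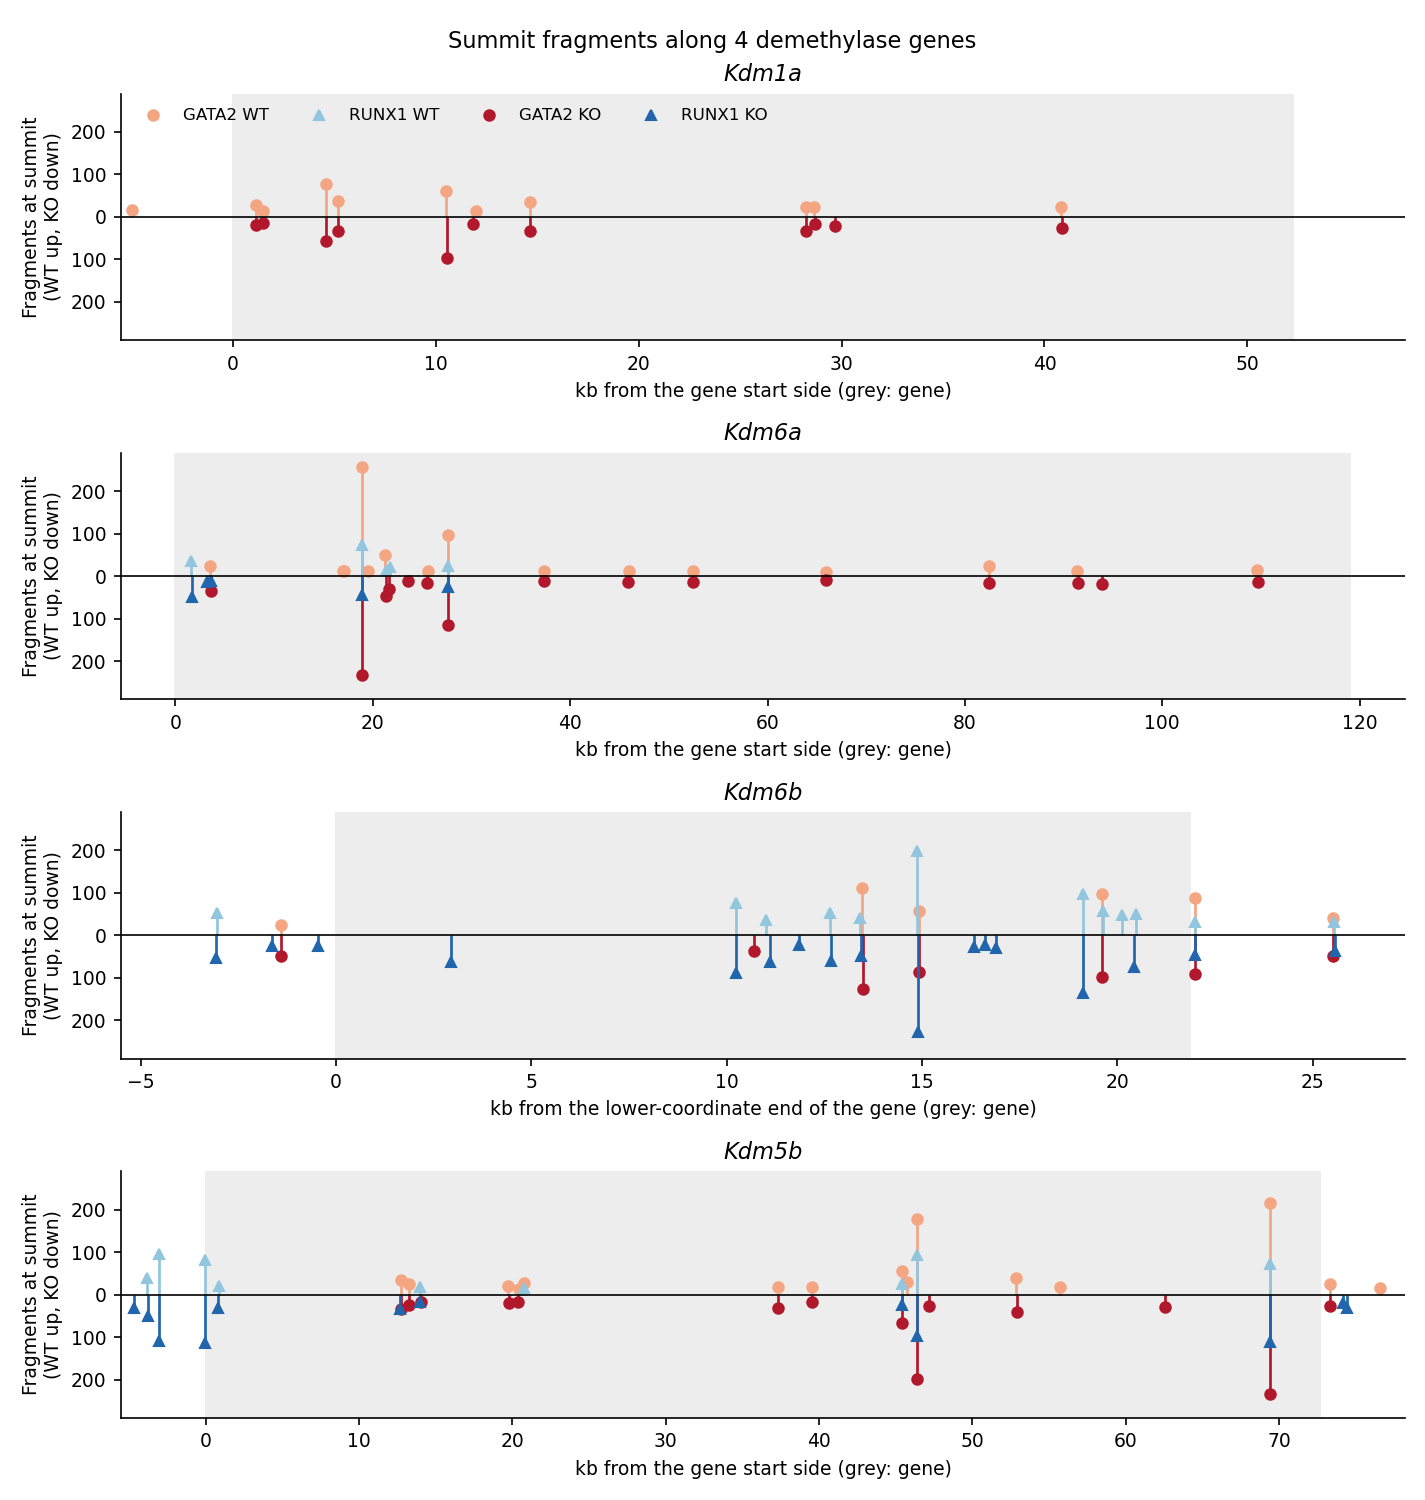
Positions of factor peaks along Kdm1a, Kdm6a, Kdm6b and Kdm5b, with distance in kb from the end of the gene on its start side (Kdm6b: lower-coordinate end) on the horizontal axis. Summit fragments of GATA2 (circles) and RUNX1 (triangles) rise above the line for WT and hang below it for KO. Kdm1a carries GATA2 peaks only, Kdm6a has its high GATA2 summit (257 WT, 233 KO fragments) in the first part of the gene, and Kdm6b is filled with RUNX1 peaks of up to 199 WT and 228 KO fragments.

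Among the genes of H3K4 demethylases, Kdm1a was the one without a RUNX1 peak. The gene (chromosome 4, 136550533 to 136602787, minus strand) held 11 GATA2 peaks in each list, 10 of them shared. Its nearest RUNX1 summit in either list lay 50.4 kb from the gene, and so did the nearest GATA2 summit outside its window. The weakest peaks in the RUNX1 lists rest on 7 fragments, so a summit weaker than the caller's limit cannot be seen. Of 837 genes with 11 or more GATA2 peaks in both lists, Kdm1a was the only one without RUNX1 in either list (0.119%). The limit of 11 is its own count, chosen after the values were seen, and at 8 or more such peaks 10 of 1466 genes had no RUNX1 (0.682%), and at 5 or more 54 of 2979 (1.81%).

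The 2 strongest GATA2 sites of Kdm1a differed in opposite directions. The one 10450 bases inside gave 60 WT fragments (45.8 to 77.2) and 97 KO fragments (78.7 to 118), a ratio of 1.52 (1.09 to 2.14). The one 4513 bases inside gave 77 and 58, a ratio of 0.710 (0.496 to 1.01), whose interval includes 1. The other Kdm1a summits that matched 1 to 1 between the lists had 14 to 38 fragments in WT.

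Kdm5b (chromosome 1, 134560178 to 134632878, plus strand), an H3K4 demethylase, had 24 sites, 3 of them with both factors in all 4 lists. Its strongest GATA2 summit, 69388 bases from the start near the end of the gene, gave 216 WT fragments (188 to 247) and 234 KO fragments (205 to 266). The RUNX1 summit on it gave 72 and 111, a ratio of 1.52 (1.12 to 2.07), while the GATA2 ratio was 1.02 (0.845 to 1.23). The next site, 46423 bases from the start, gave 178 and 198 GATA2 fragments and 93 and 97 RUNX1 fragments. RUNX1 also lay 3041 bases upstream, in Mgat4e, with 95 and 109 fragments and no GATA2. RUNX1 peaks called in KO alone at Kdm5b reached 34 fragments (23.5 to 47.5), at 134572765 to 134573051 on a GATA2 site of 35 fragments in both lists.

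Kdm5a (chromosome 6, 120364099 to 120444574) carried 1 RUNX1 peak, 263 bases inside its lower-coordinate end, where it also lies in the neighbouring Ccdc77. It gave 75 WT fragments (59.0 to 94.0) and 142 KO fragments (120 to 167), a ratio of 1.86 (1.40 to 2.50). GATA2 at Kdm5a was weak and separate from it, with at most 45 fragments in either list. Kdm5c (X, 152233198 to 152279102, plus strand), an X-linked gene, had 3 GATA2 summits, with 24, 21 and 19 fragments in WT and 24, 28 and 28 in KO, and no site with both factors. The GATA2 ratios at Kdm5c had intervals that include 1.

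Kdm2b, Kdm3b and Kdm4a, whose products act on H3K9 or H3K36, each had 1 GATA2 site of over 100 fragments in WT. Kdm2b (chromosome 5, 122870664 to 122989270, minus strand) has 4 annotated starts, 2 at the outer end of the gene and 2 inside it. The RUNX1 summit at the inner starts gave 24 WT fragments (15.4 to 35.7) and 49 KO fragments (36.3 to 64.8), and that at the outer starts 22 and 39. The ratios were 2.01 (1.21 to 3.42) and 1.74 (1.01 to 3.09). Shared RUNX1 summits of chromosome 5 as a whole had a median log2 ratio of 0.56, against 0.19 over all chromosomes, and those of GATA2 0.46 against 0.11. Relative to the chromosome's median the log2 ratios of these 2 summits were 0.44 and 0.24. The strongest GATA2 site lay 1513 bases upstream of a start, with 142 WT fragments (120 to 167) and 186 KO fragments (160 to 215), and 38 and 34 RUNX1 fragments on it. A GATA2 site 2076 bases upstream of an inner start gave 80 and 99.

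Kdm3b (chromosome 18, 34777008 to 34839370) had its one strong GATA2 site 6581 bases from the lower-coordinate end, with 165 WT fragments (141 to 192) and 170 KO fragments (145 to 198). RUNX1 on it gave 52 and 61, and a RUNX1 site with no GATA2, 2411 bases from that end, gave 48 and 61. Kdm4a (chromosome 4, 118136957 to 118180090, minus strand) had its strongest GATA2 site 31554 bases inside, with 117 fragments (96.8 to 140) and 122 (101 to 146), and 27 and 25 RUNX1 fragments. Its RUNX1 summits away from the start gave 65 and 47 fragments 35496 bases inside, a ratio of 0.711 (0.478 to 1.05), and 72 and 76 at 45065 bases, beside the gene St3gal3. The strongest GATA2 summits of these 3 genes thus had ratios of 1.23 (0.987 to 1.55) at Kdm2b, 0.971 (0.779 to 1.21) at Kdm3b and 0.983 (0.756 to 1.28) at Kdm4a, all with intervals that include 1.

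Over all members the lists largely held the same sites. Of 78 WT and 81 KO GATA2 peaks, 67 in each overlapped a peak of the other genotype, 85.9% (76.2 to 92.7) and 82.7% (72.7 to 90.2), against 81.5% and 68.8% of all peaks of those lists. Of 43 WT RUNX1 peaks 39 were shared, 90.7% (77.9 to 97.4), and of 53 KO peaks 35, 66.0% (51.7 to 78.5), against 86.6% and 69.6% over each list. The peaks called in 1 genotype alone were weaker, with medians of 14 (WT) and 16.5 (KO) fragments for GATA2 and 18 and 25.5 for RUNX1. Peaks that met had medians of 24 and 30 fragments for GATA2 and 48 and 51 for RUNX1. KO had more peaks of its own than WT for both factors, 14 against 11 for GATA2 and 18 against 4 for RUNX1.

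GATA2 and RUNX1 met at some of these sites and lay apart at most. Of the 124 sites 14 carried both factors in all 4 lists, and a few more carried both in only some lists. GATA2 in both genotypes with no RUNX1 was found at 46 sites, and RUNX1 in both with no GATA2 at 20. Sites were not merged and counted over the whole lists, so these counts only describe the members. A GATA2 peak overlapped RUNX1 in 16 of 78 cases in WT and 19 of 81 in KO, 20.5% and 23.5%, against 22.5% and 22.5% of all GATA2 peaks. RUNX1 peaks overlapped GATA2 in 17 of 43 and 20 of 53 cases, 39.5% and 37.7%, against 53.9% and 52.4%. By counting error alone the upper bounds of these shares were 55.6% in WT and 52.1% in KO. Such bounds treat peaks as independent, while Kdm6b alone held 12 of the 43 and 17 of the 53. The difference from all RUNX1 peaks was therefore not tested. Of the 14 sites with all 4 peaks, Kdm6b held 5, Kdm5b 3, Kdm4a and Kdm6a 2 each, and Kdm2b and Kdm3b 1 each.

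At the members, as over the whole lists, more shared summits were higher in KO than lower. For the 31 RUNX1 summits that matched 1 to 1, 26 were higher in KO and 5 lower, against 70.8% and 29.2% of all 23560 such summits. By at least 1.5 times, 8 were higher and 1 lower. Over all such summits, 14.8% were higher and 4.58% lower by 1.5 times. The median log2 ratio was 0.23 in members and 0.19 over all RUNX1 summits. Relative to the median of their own chromosome, 21 of 31 were higher, and those above 1.5 times numbered 3 (Kdm5a, Kdm6b, Kdm7a).

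For GATA2, 39 of 62 shared summits were higher in KO and 23 lower, against 60.8% and 39.2% of 53508. By at least 1.5 times, 5 were higher and 2 lower, against 13.8% and 6.59%. The median log2 ratio was 0.10, and 0.11 over all summits. Relative to the chromosome's median 28 of 62 were higher. By counting error alone, 4 GATA2 ratios (1 in Kdm1a, 2 in Kdm6b, 1 in Kdm7a) and 7 RUNX1 ratios had an interval above 1, and 1 RUNX1 ratio had one below 1. Such intervals were not counted over all shared summits, of which 60.8% (GATA2) and 70.8% (RUNX1) were higher in KO. Whether these interval counts differ from those of all shared summits is therefore not known. The 8 RUNX1 summits past 1.5 times lay in 6 genes, and 2 of them at Kdm2b.

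**Figure D3:**
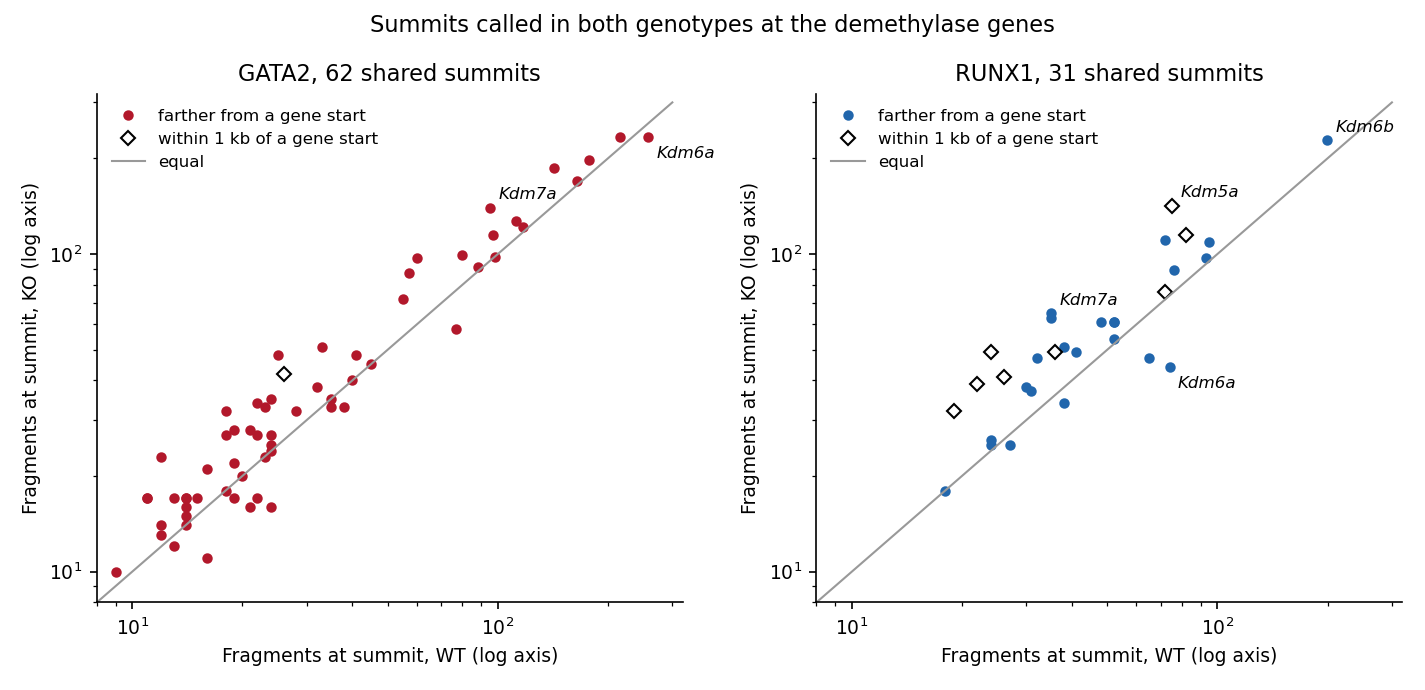
Summit fragments of each shared peak at the members in WT (horizontal) and KO (vertical), on log axes, for GATA2 and RUNX1 without scaling for depth. Points near the diagonal gave like numbers in both lists, and the RUNX1 summit in Kdm6a (74 and 44) lies below it while that of Kdm5a (75 and 142) lies above.

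S2P coverage, the percentage of a gene's length under S2P peaks, ran from near none to most of the gene. Kdm5a had 69.1% in WT and 71.7% in KO and Kdm3b 59.9% and 61.7%, and these were the 2 genes at 50% or more in WT. Kdm4a had 45.7% and 55.6%, Kdm5c 44.0% and 50.3%, and Kdm6b 43.0% and 48.9%, so that 4 genes reached 50% in KO. Among all genes of 2 kb or more, 16.7% reached it in WT and 17.1% in KO. Kdm6a had 19.7% and 25.1%, Kdm5b 18.9% and 26.3%, and Kdm1a 18.4% and 23.0%. Kdm2b had 6.89% and 6.22% and Kdm7a 0.470% and 0.512%.

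Coverage was higher in KO in 9 of 10 genes, all except Kdm2b, and in 61.0% of 9986 genes with coverage. With only stronger S2P peaks the exception was Kdm3b, as given below. The difference reached 5 points in 5 genes, which were Kdm4a (9.89 points), Kdm5b (7.47), Kdm5c (6.28), Kdm6b (5.89) and Kdm6a (5.42), against 19.1% of those genes. Of the 6903 genes with 10% or more in both lists, 24.0% differed by as much. The median difference was 5.04 points in all 10 members, which were not held to the 10% limit. It was 0.667 in the 9986 genes and 1.13 in the 6903 genes within that limit. The KO list covered 123 Mb in all and the WT list 115 Mb, so coverage was higher in KO over the genome as well. The labels do not tell how the list of a genotype was made from its 2 replicates, so their spread was not measured.

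**Figure D4:**
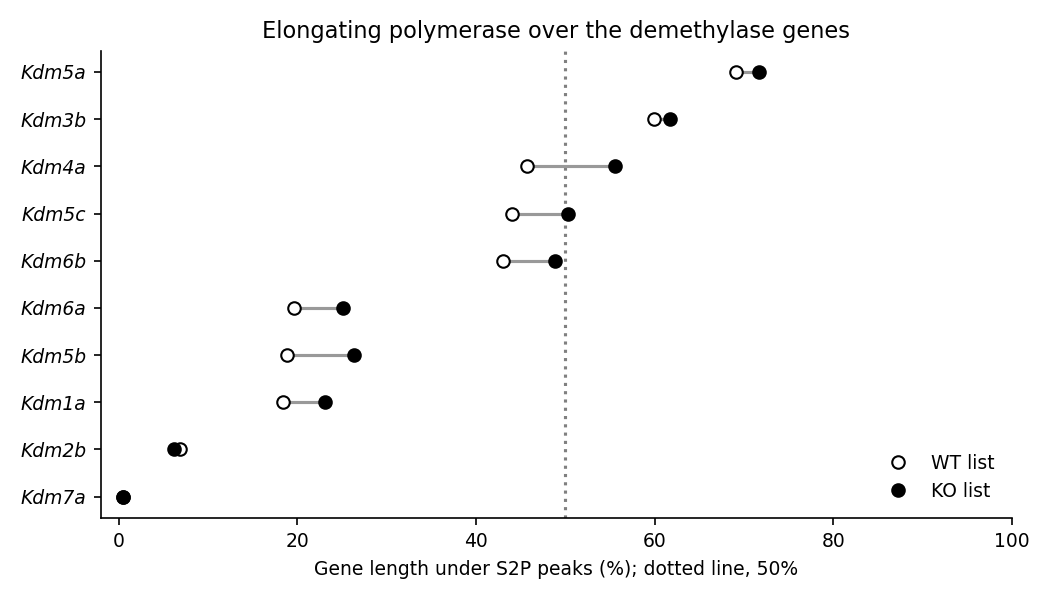
Percentage of each gene's length under S2P peaks in WT and KO, 1 point for each list and gene. With all S2P peaks counted, Kdm4a shows the widest gap of the 10 genes, 45.7% against 55.6%, and Kdm2b alone lies lower in KO.

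Each gene was then divided into 10 equal stretches, numbered from the start where one is annotated. In Kdm5c, Kdm5b and Kdm2b, S2P lay mainly toward the end of the gene. In Kdm5c coverage went from 3.25% in stretch 1 to 100% in stretch 10 in WT, and from 0% to 100% in KO. In Kdm5b stretches 1 to 3 were at 2.41% or less in both lists, while stretches 8 and 9 held 65.4% and 59.4% in WT and 56.2% and 66.4% in KO. Stretch 7 of Kdm5b had 19.2% in WT and 43.2% in KO. In Kdm2b all coverage in KO lay in stretch 10, with 62.2%, against 60.1% in WT, where stretches 5 and 9 had 3.39% and 5.46%. The gene Rnf34 lies within 5 kb of Kdm2b without overlapping its span, and its part in the Kdm2b coverage was not tested. Kdm6a was covered most in stretch 9, with 48.6% and 52.4%, and Kdm4a in stretch 6, with 83.1% and 91.5%.

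Kdm1a was covered most at its start in WT, with 66.9% of stretch 1 under S2P in WT and 53.3% in KO, next to 9.86% and 6.35% of stretch 2. The gene Luzp1 overlaps the span of Kdm1a, but no GATA2 summit inside Kdm1a lay in Luzp1, including those in stretch 1. S2P peaks carry no strand, and the part of Luzp1 in the coverage of any stretch was not tested. Toward the end of Kdm1a coverage was 9.20% in WT and 29.0% in KO in stretch 7, 27.3% and 53.0% in stretch 8, 38.5% and 38.4% in stretch 9, and 28.4% and 41.9% in stretch 10. In Kdm6b, counted from the lower-coordinate end, stretches 2 and 3 were wholly covered in both lists, and stretches 8 and 9 were at 0% in both. Stretch 7, where the strongest RUNX1 summit of the gene lies, had 17.0% and 16.3%.

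**Figure D5:**
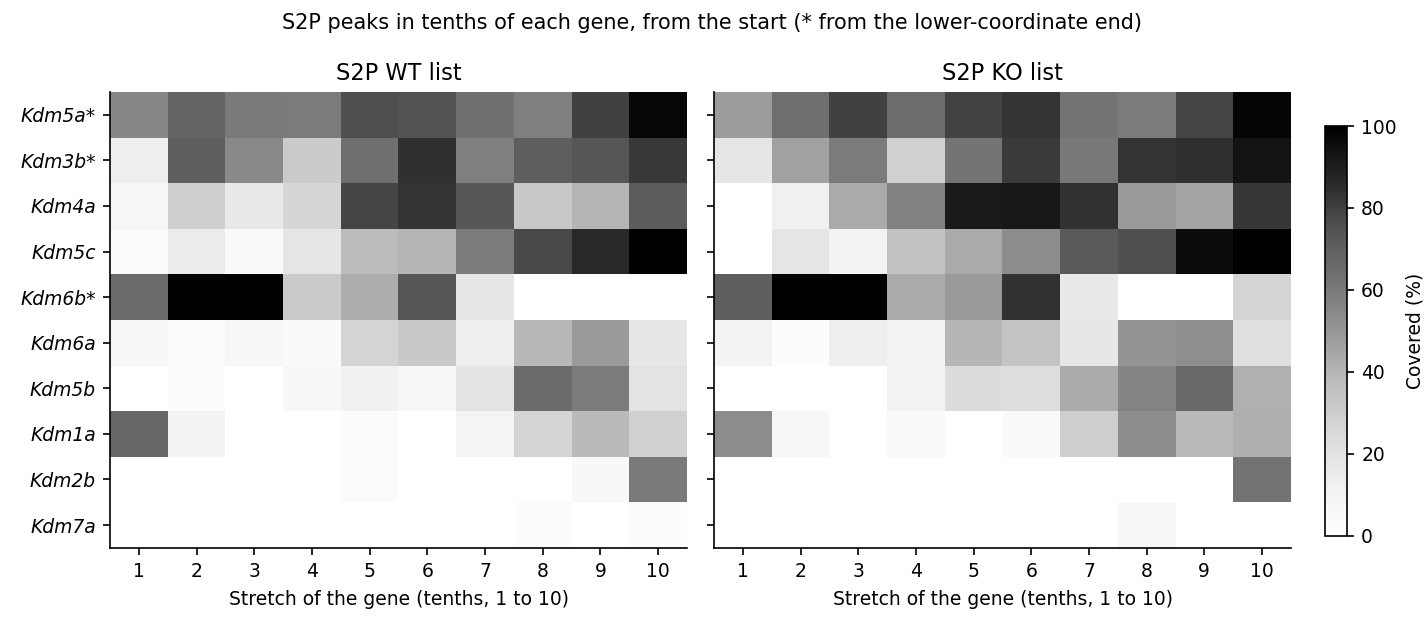
S2P coverage in 10 equal stretches of each gene, as the percentage covered (grey scale) in the WT and KO lists, from the annotated start or, for genes with a star, from the lower-coordinate end. Kdm5c reaches 100% in stretch 10 in both lists, and Kdm2b is covered at 60.1% and 62.2% in its stretch 10.

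The differences in S2P and in peak number are set side by side for 4 genes. With all S2P peaks counted, Kdm4a had the widest S2P difference, with 4 GATA2 peaks in each list. Kdm7a had 3 more RUNX1 peaks in KO with an S2P difference of 0.0413 points. Kdm6b and Kdm5b had more RUNX1 peaks in KO and an S2P difference past 5 points. With 10 genes chosen by name, no correlation between the measures was computed.

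The related genes were counted from lists drawn up for this comparison, which were not matched for gene length. Over all protein-coding genes, 56.6% had GATA2 in WT and 61.0% in KO, and 50.1% and 52.7% had RUNX1. Of 16 other lysine demethylase genes 12 had GATA2 in WT and 13 in KO, and 14 had RUNX1 in both. Jmjd1c held the most, 28 and 30 GATA2 peaks with up to 265 and 269 fragments, and Kdm2a had the widest S2P difference, 29.7% and 37.1%. Among 13 partners of the KDM1A complex, 10 and 11 had GATA2 and 11 had RUNX1 in both lists. Phf21a, a subunit that reads unmodified H3K4, held 18 and 21 GATA2 peaks. Tal1, a regulator of erythroid genes, had the strongest GATA2 summit with 253 and 270 fragments, and Hdac2, a deacetylase, the widest S2P difference, 8.42% and 15.2%.

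Of 9 genes of the KDM2B Polycomb complex, 7 had GATA2 in both lists and all 9 RUNX1. Bcor, a scaffold of that complex, held 12 and 21 GATA2 peaks, with up to 257 and 268 fragments, and Ring1, its ubiquitin ligase, had S2P over 66.7% and 88.1% of 3.89 kb. Of 9 genes of the KDM6A complex, 7 had GATA2 and 9 RUNX1 in both lists. Kmt2c, the H3K4 methyltransferase of that complex, held 20 and 30 GATA2 peaks, and Paxip1 had RUNX1 at 234 and 260 fragments. Both lie on chromosome 5. Among the 9 genes of the KDM6A complex, Rbbp5 had the widest S2P difference, 38.4% and 53.2%.

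All 23 methyltransferase genes that oppose the demethylases had both factors in both genotypes. Nsd3, an H3K36 methyltransferase, held 15 and 16 GATA2 peaks. Ezh2, which writes the H3K27 mark that KDM6A and KDM6B remove, had a GATA2 summit of 257 and 268 fragments and S2P over 43.1% and 58.8% of the gene. S2P coverage was higher in KO in 19 of the 23 and lower in 4, and in 7 of 12, 8 of 11, 3 of 7 and 6 of 9 of the lists given before, in the order above. Over the 9986 genes of 2 kb or more with coverage, 61.0% were higher in KO.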

How the data were processed

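ChIP-seq peak lists of GATA2, RUNX1 and S2P in WT and Chd7-/- G1ER cells were analysed, 1 list per target and genotype. Bowtie2 2.2.1, MACS2 2.1.0 and the builds GRCm38 and mm10 are named per the submitters' processing notes, without roles or settings. Which input went with which list is not given in the sources used here, and both factor lists of a genotype may share 1 input. The authors deposited, for each peak, a whole-number score, a fold enrichment that is a ratio of summit pileup to local background, the −log10 of the p-value and of the q-value, and the position of the summit (here the meaning was checked on the values). The lists reach down to a q of about 0.05.

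The number of fragments over each factor summit, and the background beside it, were solved from the fold enrichment and the −log10 p that the authors deposited, under the Poisson model of the caller. A whole number matched the deposited −log10 p to within 0.005 for 100% of peaks. The method was tested on simulated peaks. Fragments cannot pass a ceiling of 286 (WT) or 282 (KO), set by the caller, so ratios of the strongest summits can be drawn toward 1. The lowest backgrounds used for scaling were 1.48 (WT) and 1.57 (KO) fragments for GATA2 and 1.37 and 1.39 for RUNX1. Fragment numbers carry exact Poisson and shares exact Clopper-Pearson 95% intervals. The ratios carry exact conditional intervals. All cover counting error only, since each factor list came from 1 library and the spread between libraries is not known.

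A peak counted for a gene if its summit fell between the gene's ends or at most 5 kb beyond them. Peaks were shared when they overlapped by at least 1 bp, and summits were compared only where 1 peak met 1 peak. Sites are merged peaks of the 4 factor lists. S2P coverage used genes of 2 kb or more. Gene positions, and promoters for 7 of the 10 members, are from RefSeq tables of GRCm38.p6. Kdm3b, Kdm5a and Kdm6b are measured from their lower-coordinate end. Exons and introns were not separated. All 10 genes are named, with each factor's strongest peak per gene, the strongest peaks called in 1 genotype alone and, from each list of related genes, those with the most GATA2 peaks in WT, the strongest summit and the widest S2P difference. The planned promoter window of 300 bases was shortened to the 250 before the start. The members, lists and tests were chosen with earlier results of these data known. No test between genotypes was made. Alternatives covered the gene window, peak strength, overlap, scaling, the distance to a start and the S2P limits. Computation used Python 3.11.15 with numpy 2.4.6, pandas 2.3.3 and SciPy 1.17.1.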

Additional observations from a re-analysis of the deposited data

How the results depend on the processing

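Of the counts and shares recomputed under the alternatives, 58 stayed within 1.5 times or within the counting interval of the value given and 18 moved. A count that stayed could still change direction. GATA2 summits higher in KO went from 39 to 28 of 62 relative to the chromosome's median. The number of genes with GATA2 near a start went from 1 to 0 within 500 bp and to 5 within 2 kb, in both genotypes. With an overlap of at least 50% of both peaks, shared RUNX1 peaks fell to 62.8% in WT and 50.9% in KO. GATA2 summits at least 1.5 times higher in KO numbered 11 without scaling and 3 relative to the chromosome's median, in place of 5. Those lower by as much numbered 1 without scaling, and 1 without Kdm2b, in place of 2. RUNX1 summits at least 1.5 times higher numbered 3 relative to the chromosome's median in place of 8, and lower ones 3 in place of 1. Genes covered by S2P in WT numbered 5 at a limit of 25% and 0 at 75%, in place of 2. In KO they numbered 7 at 25%, 0 at 75%, 2 with only S2P peaks of −log10 q 5 or more and 2 with 5 kb added on either side, in place of 4. With only those stronger S2P peaks, 9 of 10 genes were again higher in KO, but the exception was Kdm3b, with 53.3% in WT and 52.8% in KO. Kdm2b then had 5.01% and 5.78%. The widest difference was then at Kdm6b, with 34.7% and 44.6%, and Kdm4a had 35.1% and 44.2%. The cause of these shifts was not tested. Taking the same number of strongest peaks from both lists left 69 GATA2 and 45 RUNX1 peaks at the members in KO, in place of 81 and 53. The WT lists kept 78 and 43, so KO then had fewer GATA2 peaks than WT. Leaving out Kdm2b or Kdm6b was chosen after seeing the data. No paired analysis was possible because each target has 1 list per genotype and the S2P replicates are not given apart. Depth limits weak sites: at the 7 fragments of the weakest peaks, a site present in both genotypes can miss the threshold in one.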

Other observations

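RUNX1 summits near the start of any annotated gene and those farther away had different ratios at the members. The 8 shared RUNX1 summits within 1 kb of a start had a median log2 KO over WT ratio of 0.68, and the 23 farther away 0.20. Over all genes the medians were 0.27 for 6449 summits near a start and 0.15 for 17111 farther away. The 8 summits lie in the windows of Kdm2b (2), Kdm5b (2), Kdm4a, Kdm5a, Kdm5c and Kdm6a, those at Kdm2b on chromosome 5. The one at Kdm4a lies 45065 bases from the Kdm4a start, beside St3gal3. Kdm5a has no annotated start here, so its summit is near a start of another gene. A Kdm3b summit 99 bases outside its lower-coordinate end counted as farther, as Kdm3b has no annotated start either. The split is thus not one by the members' own starts, and it was looked at after the values were seen. For GATA2, 1 shared summit of the members lay near a start.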
